A study of Mus musculus with 5 samples.

Results

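Collagens are the triple-helical proteins of the extracellular matrix, and 28 collagen genes are described here, of the 10329 genes with footprint counts in mouse brain slices. They were chosen by symbol (Col, a type number, the letter a and a chain number) and by a coding sequence (CDS) under 8000 nt, and were selected on earlier results of these data, in which collagen mRNAs kept footprints. Their retention is therefore a description and supports nothing by itself. They fall into 7 fibrillar collagens, 6 network-forming collagens (types IV and VIII) and 15 others. The others are fibril-associated, type VI, multiplexin, transmembrane and remaining collagens.

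The material was hippocampal-cortical slices of 400 µm from wild-type male C57BL/6N mice aged 28 to 35 days, left to recover for 3 to 4 h. Slices were treated with 20 µM homoharringtonine (HHT) for 0, 5, 10, 30 or 60 min, in 0.05% DMSO as the vehicle. HHT is a plant alkaloid that stops ribosomes as they begin to elongate, while ribosomes already on the mRNA run off its end. Ribosome-protected fragments (footprints) were then counted over each CDS. Each time has 1 library, from a pool of 10 slices of 2 to 3 mice, so no time has a replicate and every comparison with 0 min shares the single 0 min library. No slices kept in vehicle alone for 5 to 60 min were analysed here, so time on HHT and time in vehicle cannot be told apart. The libraries held 7155147, 2787749, 2022152, 1504748 and 1346175 counts in time order.

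Collagen chains are made on ribosomes at the endoplasmic reticulum, where prolines and lysines are hydroxylated while the chain is still growing and chains then join in threes of a fixed make-up. Fibrillar collagens form banded fibrils after their end pieces are cut off. Network collagens keep those ends and form sheets such as the basement membrane around brain vessels. In brain most interstitial collagen is made by fibroblasts of the meninges and around vessels, and type IV by endothelial and mural cells. Footprints reflect mRNA amount and ribosomes per mRNA together, and in bulk slices fewer cells of a type and less RNA per cell cannot be told apart.

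Collagen mRNAs as a family kept more of their footprint signal than the typical mRNA at every time, and the order of the classes changed with time. The signal is the authors' deposited value, the count per kilobase of CDS less 600 nt after a library factor. The deposited ratio sets it against 0 min. After 5, 10, 30 and 60 min the median ratio of the 28 collagens was 0.833, 0.839, 0.436 and 0.416. That of all 10329 genes was 0.333, 0.268, 0.223 and 0.181. Network collagens had the highest class median at 5 min (0.941) and 10 min (0.963). Fibrillar collagens had the highest at 30 min (0.639) and 60 min (0.481), against 0.459 and 0.416 for network collagens. The other collagens had the lowest class median at each time, from 0.674 at 5 min to 0.273 at 60 min.

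Long mRNAs take longer to empty, so length has to stand beside these values. Of the 28 collagens, 15 have a CDS of 4000 to under 6000 nt, and 562 genes of the table do. In that span the collagen medians were 0.933, 0.921, 0.443 and 0.418 at 5, 10, 30 and 60 min, and those of all 562 genes were 0.604, 0.601, 0.252 and 0.200. The collagen medians thus lay above those of genes of like length at each time. Set against a smooth trend of log2 fold on CDS length over all genes, 28 of 28 collagens lay above the trend at 5 min and 24 of 28 at each of 10, 30 and 60 min. Of all 10329 genes, 5221, 5177, 5157 and 5166 lay above it at the 4 times. The median excess of the collagens was 0.52, 0.68, 0.78 and 1.02 on the log2 scale. Among the 28 collagens Spearman's rho between ratio and CDS length was 0.76 at 5 min and 0.67 at 10 min, and -0.04 at both 30 and 60 min. All genes gave 0.70, 0.47, 0.13 and 0.07 at the 4 times. These points share the libraries and are descriptions.

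**Figure D1:**
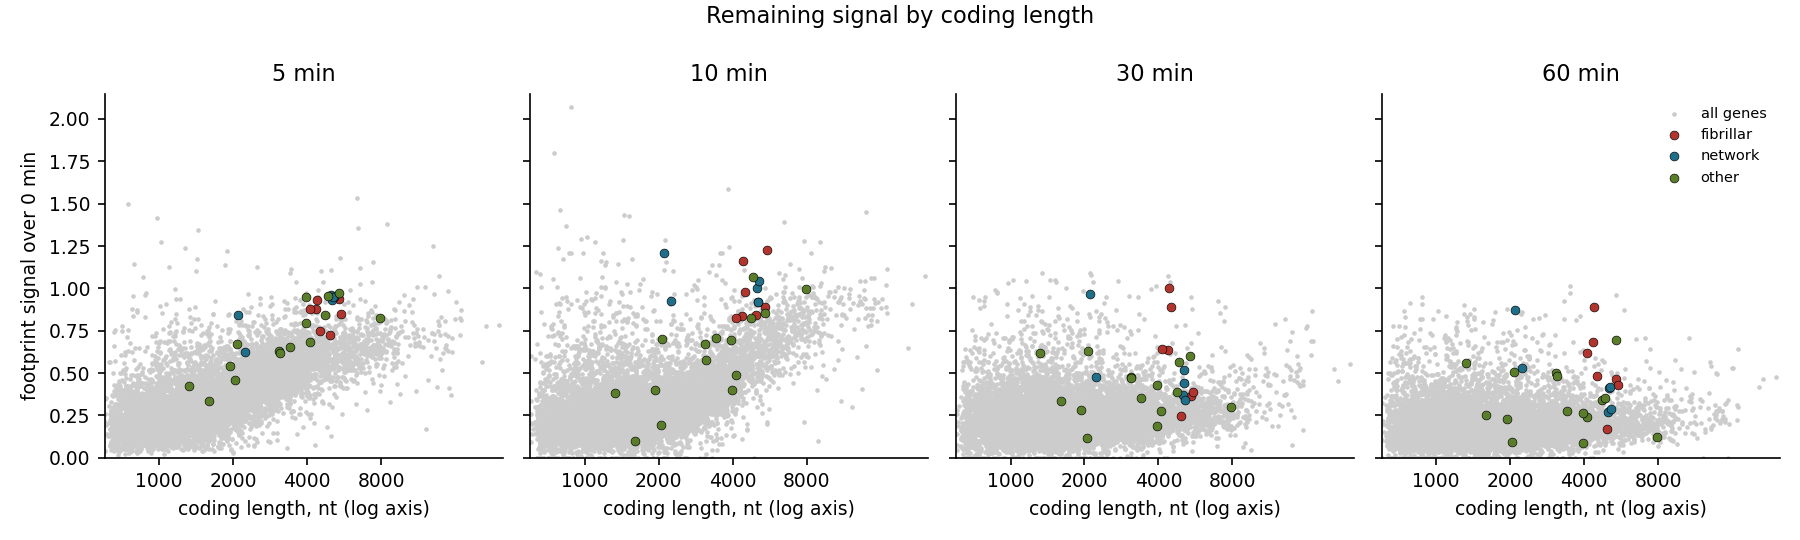
Deposited signal at 5, 10, 30 and 60 min over that at 0 min (y axis) against coding length on a log axis (x axis), with each gene of the table a grey point and the collagens coloured by class. Most collagens lie in the upper part of the cloud for their length at 5 and 10 min, with Col9a3 and Col23a1 low at 10 min, and at 30 and 60 min Col3a1 and Col8a2 lie near its top, while Col9a3 lies near its bottom.

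As a share of all counted footprints, the 28 collagens made up 2221 CPM at 60 min (95% exact interval 2142 to 2302), against 1019 CPM at 0 min (996 to 1043). At 5, 10 and 30 min the shares were 2013, 2372 and 1945 CPM. The class shares did not move together. Fibrillar collagens held 406, 860, 1031, 979 and 1187 CPM in time order. Network collagens held 269, 626, 792, 437 and 443, so their share peaked at 10 min. The other collagens held 344, 528, 549, 530 and 591. The share of long mRNAs in general was also highest at 10 min. Summed counts over the library factor were set against 0 min at 5, 10, 30 and 60 min. For the 562 genes of 4000 to under 6000 nt they were 0.630, 0.628, 0.268 and 0.213. For all genes they were 0.404, 0.341, 0.239 and 0.193, and for network collagens 0.938, 1.004, 0.387 and 0.318. The type IV chains are of that length, so a peak at 10 min is not particular to network collagens. The interval covers counting error alone and not the difference between pools.

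Type I collagen, the main fibril former of meninges and adventitia, is a trimer of chains from Col1a1 and Col1a2, and these were the most counted collagens. Col1a1 (chromosome 11, CDS 4362 nt) had 1041, 883, 719, 586 and 691 counts at 0, 5, 10, 30 and 60 min. Its ratios were 0.879, 0.834, 0.639 and 0.682 at the 4 treated times. Col1a2 (chromosome 6, CDS 4119 nt) had 1022, 868, 697, 578 and 617 counts. Its ratios were 0.880, 0.824, 0.642 and 0.620. Both genes lost nearly the same share to 30 min and then levelled off. Both had more counts at 60 min than at 30 min, but the deposited library factor was also larger at 60 min (0.973, against 0.882). Relative to other mRNAs (counts scaled by TMM, which sets the typical gene to no change), their log2 folds at 60 min over 0 min were 1.89 for Col1a1 (1.76 to 2.04) and 1.76 for Col1a2 (1.61 to 1.91). Per length, Col1a1 stood at the 85.0th percentile of all genes at 60 min, against the 56.0th at 0 min. Most of that rise was in place at 5 min, with percentiles of 81.0, 82.7 and 81.2 at 5, 10 and 30 min.

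Col3a1 (chromosome 1, CDS 4395 nt), the chain of the homotrimeric type III collagen that shares fibrils with type I, kept nearly all of its signal. It had 111, 100, 107, 98 and 96 counts in time order, with deposited library factors of 1, 0.965, 0.828, 0.882 and 0.973. Its ratios were 0.933, 1.16, 1.00 and 0.889 at 5, 10, 30 and 60 min. The 95% counting interval of the ratio at 60 min ran from 0.669 to 1.18. Among all 10329 genes Col3a1 ranked 9 by its ratio at 60 min, and among the 562 genes of 4000 to under 6000 nt it ranked 2. Its log2 fold relative to other mRNAs was 1.45 after 5 min, 2.08 after 10 min and 2.23 after 60 min. Of the 28 collagens it had the largest fold at 30 and at 60 min. Its signal per length was near 0.138 of that of Col1a1 at 60 min (0.110 to 0.171), against 0.106 at 0 min (0.0861 to 0.129). These intervals overlapped.

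The minor fibrillar chains, which sit inside type I and type III fibrils or in cartilage-like matrices and set fibril width, were less alike. Col5a1 (CDS 5517 nt) had 134, 110, 136, 46 and 56 counts, and its ratios were 0.850, 1.23, 0.389 and 0.429. Its ratio at 10 min was the highest of the 562 genes of its length span. Col5a2 (CDS 4494 nt), its partner chain in type V collagen, had 47, 34, 38, 37 and 22 counts and ratios of 0.749, 0.976, 0.893 and 0.481. The main loss of Col5a1 thus lay between 10 and 30 min and that of Col5a2 between 30 and 60 min, on counts of 22 to 136. The counting intervals of the Col5a2 ratio at 30 min (0.564 to 1.40) and 60 min (0.276 to 0.814) overlapped. Those of Col5a1 at 10 min (0.958 to 1.57) and 30 min (0.272 to 0.548) did not. Col11a1 (CDS 5415 nt) had 84, 76, 62, 27 and 38 counts and ratios of 0.937, 0.891, 0.365 and 0.465. Col11a2 (chromosome 17, CDS 4953 nt) had 465, 326, 325, 101 and 78 counts and ratios of 0.726, 0.844, 0.246 and 0.172. Col11a2 was the 1 fibrillar collagen below the typical mRNA at 60 min, with a log2 fold of -0.09 (-0.45 to 0.26).

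Type IV collagen is the sheet-forming collagen of basement membranes, and its common form joins chains from Col4a1 and Col4a2. Col4a1 (chromosome 8, CDS 5010 nt) had 841, 779, 697, 276 and 220 counts in time order, and its ratios were 0.960, 1.00, 0.372 and 0.269. Col4a2 (chromosome 8, CDS 5124 nt) had 696, 639, 601, 210 and 197 counts and ratios of 0.951, 1.04, 0.342 and 0.291. Both kept at least 0.951 of their signal to 10 min and had lost most of it by 30 min. Relative to other mRNAs the log2 fold of Col4a1 was 1.52, 1.90, 0.72 and 0.55 at 5, 10, 30 and 60 min. That of Col4a2 was 1.51, 1.96, 0.59 and 0.66. The annotated genes lie head to head and overlap by their first bases, from 11198423 to 11312889 for Col4a1 and from 11312805 to 11449287 for Col4a2 (GRCm38.p6), and the counts cover coding sequence only.

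The X-linked basement membrane chains Col4a5 and Col4a6 followed the same course with a smaller late loss. Col4a5 (CDS 5064 nt) had 223, 201, 170, 87 and 90 counts and ratios of 0.934, 0.921, 0.443 and 0.415. Col4a6 (CDS 5076 nt) had 59, 54, 45, 27 and 24 counts and ratios of 0.948, 0.921, 0.519 and 0.418. These genes are also neighbours, with Col4a6 ending at 141474095 and Col4a5 starting at 141475370 on chromosome X. Type VIII collagen, a short-chain network collagen of vessel walls and of the membrane below the corneal endothelium, is made from Col8a1 and Col8a2. Col8a1 (CDS 2235 nt) had 81, 49, 62, 34 and 42 counts and ratios of 0.627, 0.924, 0.476 and 0.533. Col8a2 (CDS 2100 nt) had 27, 22, 27, 23 and 23 counts and ratios of 0.844, 1.21, 0.966 and 0.875. Col8a2 ranked 12 of 10329 genes by its ratio at 60 min, on counts so low that the interval ran from 0.479 to 1.59.

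**Figure D2:**
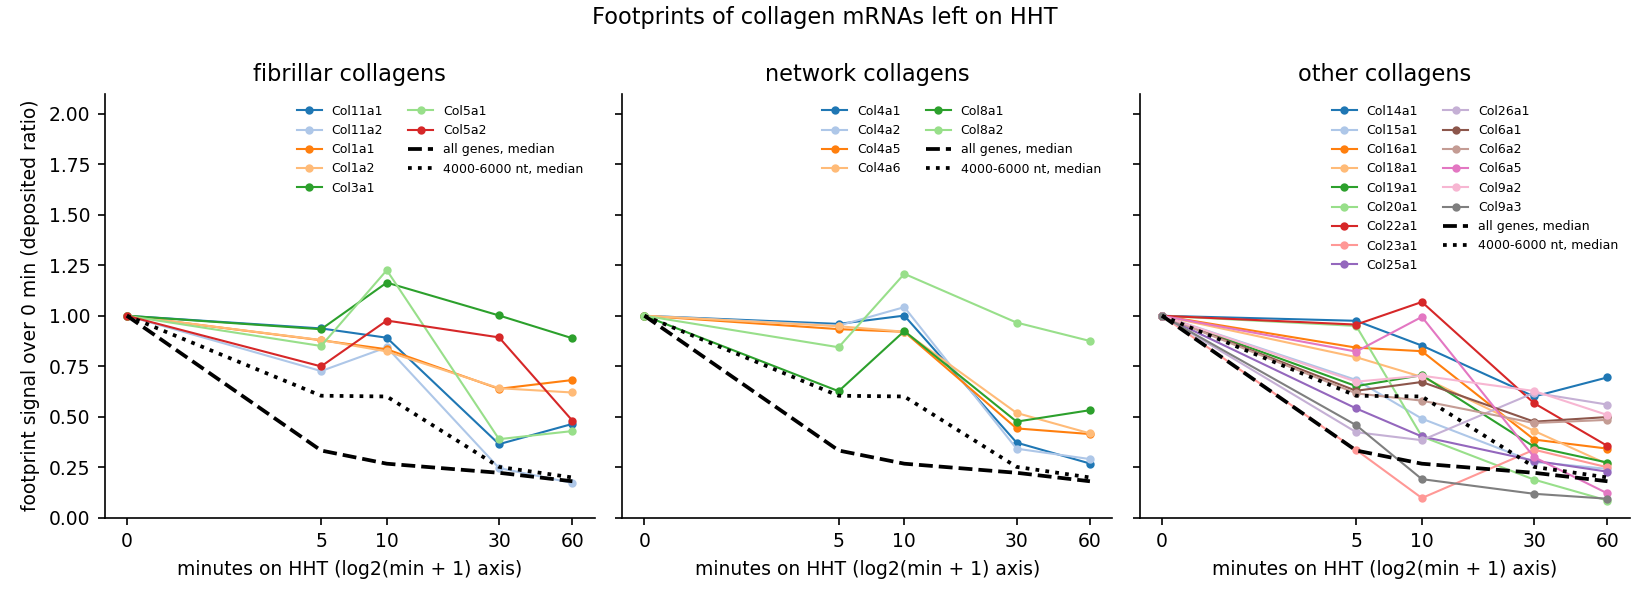
Deposited ratio of footprint signal to 0 min (y axis) against minutes on HHT on a log2(min + 1) axis, 1 line per collagen in 3 panels by class, with the median of all genes dashed and that of genes of 4000 to 6000 nt dotted. Col1a1 and Col1a2 overlie each other and level off above 0.6, Col3a1 stays near 1, and Col4a1 and Col4a2 stay near 1 to 10 min and end below 0.3.

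The difference between fibrillar and network collagens depended on 4 genes, and for summed counts its direction without them depended on Col11a2. Summed fibrillar counts were 2.68 times summed network counts at 60 min (95% exact interval 2.44 to 2.95), against 1.51 times at 0 min (1.42 to 1.60). Col1a1 and Col1a2 together were 3.14 times Col4a1 and Col4a2 at 60 min (2.81 to 3.51), against 1.34 times at 0 min (1.26 to 1.43). Without those 4 genes the fibrillar over network count ratio moved the other way, to 1.62 at 60 min (1.34 to 1.96), against 2.16 at 0 min (1.91 to 2.44). Leaving out Col11a2 as well gave 1.18 at 60 min (0.966 to 1.45), against 0.964 at 0 min (0.835 to 1.11). The fibrillar median ratio at 30 min was 0.389 without Col1a1 and Col1a2, against 0.639 with them, and the network median was 0.498 without Col4a1 and Col4a2, against 0.459 with them. The order of the class medians at 30 min thus turned without those 4 genes. At 60 min it was 0.465 without them, and the network median without Col4a1 and Col4a2 was 0.475. These splits were chosen after the values had been seen.

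Type VI collagen forms beaded filaments that tie cells to the matrix. Its chains Col6a1 and Col6a2 had ratios under 0.7 from 5 min on, and ratios at 60 min close to those at 30 min. Col6a1 (chromosome 10, CDS 3078 nt) had 379, 230, 211, 159 and 184 counts and ratios of 0.629, 0.672, 0.476 and 0.499. Col6a2 (chromosome 10, CDS 3105 nt) had 481, 286, 231, 199 and 227 counts and ratios of 0.616, 0.580, 0.469 and 0.485. Both had more counts at 60 min than at 30 min, as had type I. Summed over both genes, type VI counts were 0.986 of those of Col4a1 and Col4a2 at 60 min (0.858 to 1.13), against 0.560 at 0 min (0.514 to 0.609). The course was not steady, with a fall to 0.364 at 5 min and 0.341 at 10 min before 0.737 at 30 min. Col6a5, the collagen just inside the length limit at 7923 nt, had 34, 27, 28, 9 and 4 counts and ratios of 0.823, 0.994, 0.300 and 0.121, so this type VI chain lost most of its signal after 10 min. Just outside the limit, Col6a3 at 8034 nt had 103, 72, 76, 50 and 51 counts and ratios of 0.724, 0.891, 0.551 and 0.509. The rule also leaves out Col7a1 and Col12a1, with CDS of 8835 and 9198 nt.

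Fibril-associated collagens with interrupted triple helices lie on the surface of fibrils, and 7 of the 28 belong to them. Their members were unlike each other, with ratios at 60 min from 0.0856 to 0.695. Col9a3 (chromosome 2, CDS 2043 nt), a chain of type IX collagen, had 391, 173, 62, 41 and 36 counts and ratios of 0.458, 0.191, 0.119 and 0.0946. Col9a2 (chromosome 4, CDS 2067 nt), another type IX chain of almost the same length, had 103, 67, 60, 57 and 51 counts and ratios of 0.674, 0.703, 0.628 and 0.509. Col9a3 thus ended below the typical mRNA, with a log2 fold of -0.94 at 60 min (-1.49 to -0.46), while Col9a2 stood above it at 1.43 (0.96 to 1.97). Col14a1, Col16a1 and Col22a1 kept 0.842 to 0.975 of their signal at 5 min and 0.342 to 0.695 at 60 min. Col19a1, made by subsets of interneurons in mouse brain, had 248, 156, 145, 77 and 66 counts and ratios of 0.652, 0.706, 0.352 and 0.273. Col20a1 had 12, 11, 4, 2 and 1 counts, and its ratio at 60 min of 0.0856 had an interval of 0.00200 to 0.579.

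The membrane-bound and multiplexin collagens ended near the typical mRNA. Col25a1, a transmembrane collagen of neurons also known as the precursor of the collagenous Alzheimer amyloid plaque component, had 333, 174, 111, 83 and 74 counts. Its ratios were 0.541, 0.403, 0.283 and 0.228, and its log2 fold at 60 min was 0.31 (-0.07 to 0.69). Col23a1, another transmembrane collagen, had 37, 12, 3, 11 and 9 counts, and its ratio at 10 min was 0.0979 (0.0193 to 0.309). Col15a1 and Col18a1, basement membrane collagens that carry proteoglycan chains and release fragments such as endostatin, had 29 and 30 counts at 60 min, against 123 and 116 at 0 min. Their ratios at 60 min were 0.242 and 0.266. Col26a1 had 22, 9, 7, 12 and 12 counts and a ratio at 60 min of 0.560 (0.253 to 1.18).

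**Figure D3:**
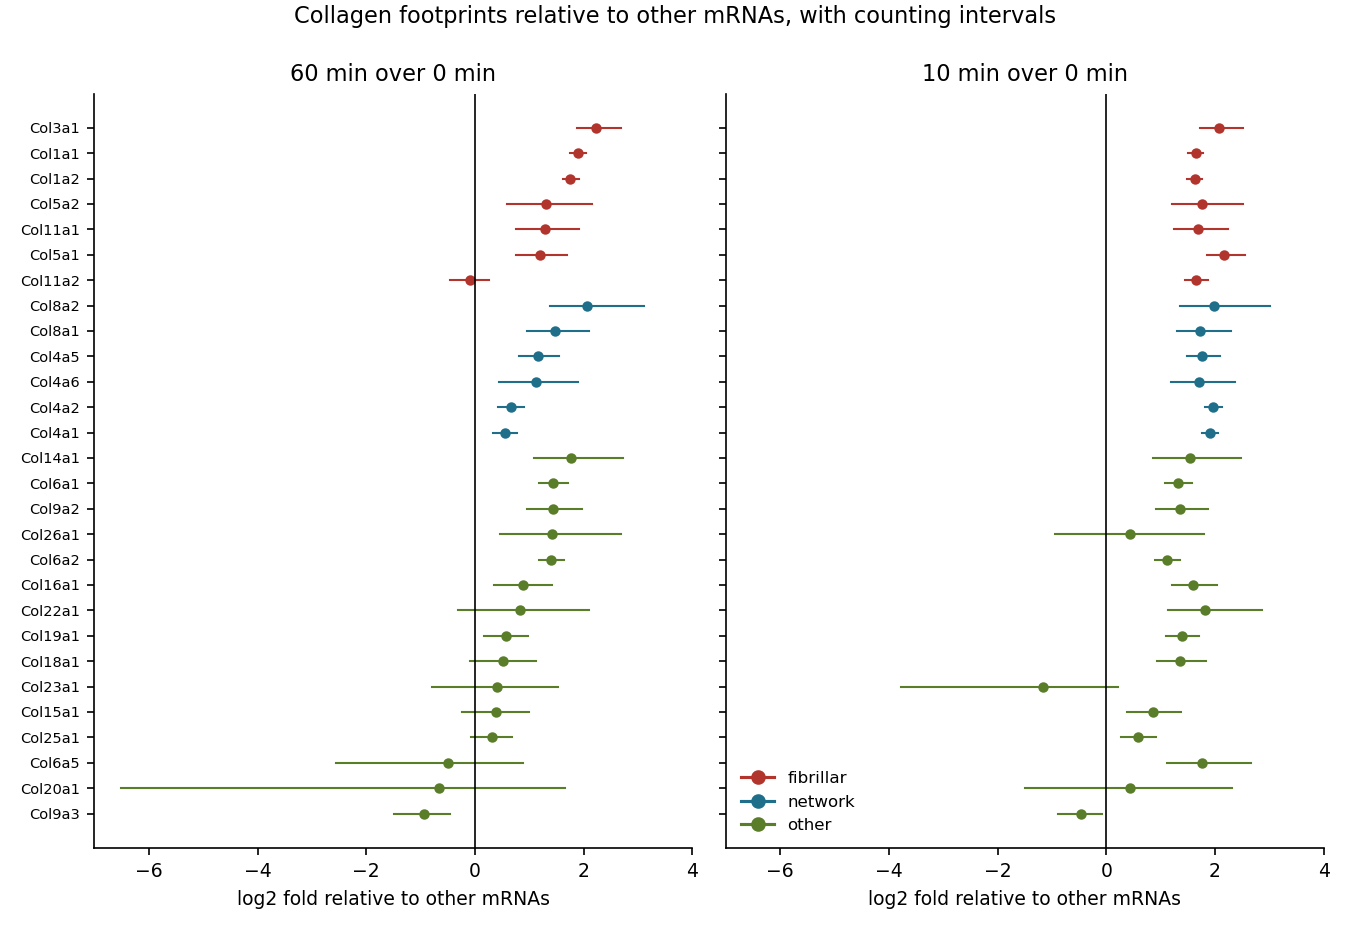
Log2 fold of each collagen relative to other mRNAs at 60 min over 0 min (left) and 10 min over 0 min (right), with 95% exact counting intervals as bars, ordered within each class by the fold at 60 min. At 10 min all fibrillar and network collagens lie between 1.62 and 2.16, and at 60 min the fibrillar ones spread from -0.09 for Col11a2 to 2.23 for Col3a1.

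Chains that are built into the same trimer were set beside each other per length of CDS. Col1a1 over Col1a2 was 0.953, 0.952, 0.965, 0.948 and 1.05 in time order, with each interval holding 1. Col4a1 over Col4a2 was 1.24, 1.25, 1.19, 1.35 and 1.15. Col4a5 over Col4a6 ran from 3.23 to 3.79, and Col6a1 over Col6a2 from 0.797 to 0.923. In these 4 pairs the intervals at 0 and 60 min overlapped. In 2 other pairs they did not. Col11a1 over Col11a2 was 0.440 at 60 min (0.291 to 0.657), against 0.163 at 0 min (0.128 to 0.206). Col9a2 over Col9a3 was 1.39 at 60 min (0.892 to 2.20), against 0.259 at 0 min (0.206 to 0.323). Col5a1 over Col5a2 was 2.26, 2.56, 2.83, 0.985 and 2.02 in time order. Across types, Col4a1 over Col1a1 was 0.272 at 60 min (0.232 to 0.317), against 0.689 at 0 min (0.629 to 0.755).

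**Figure D4:**
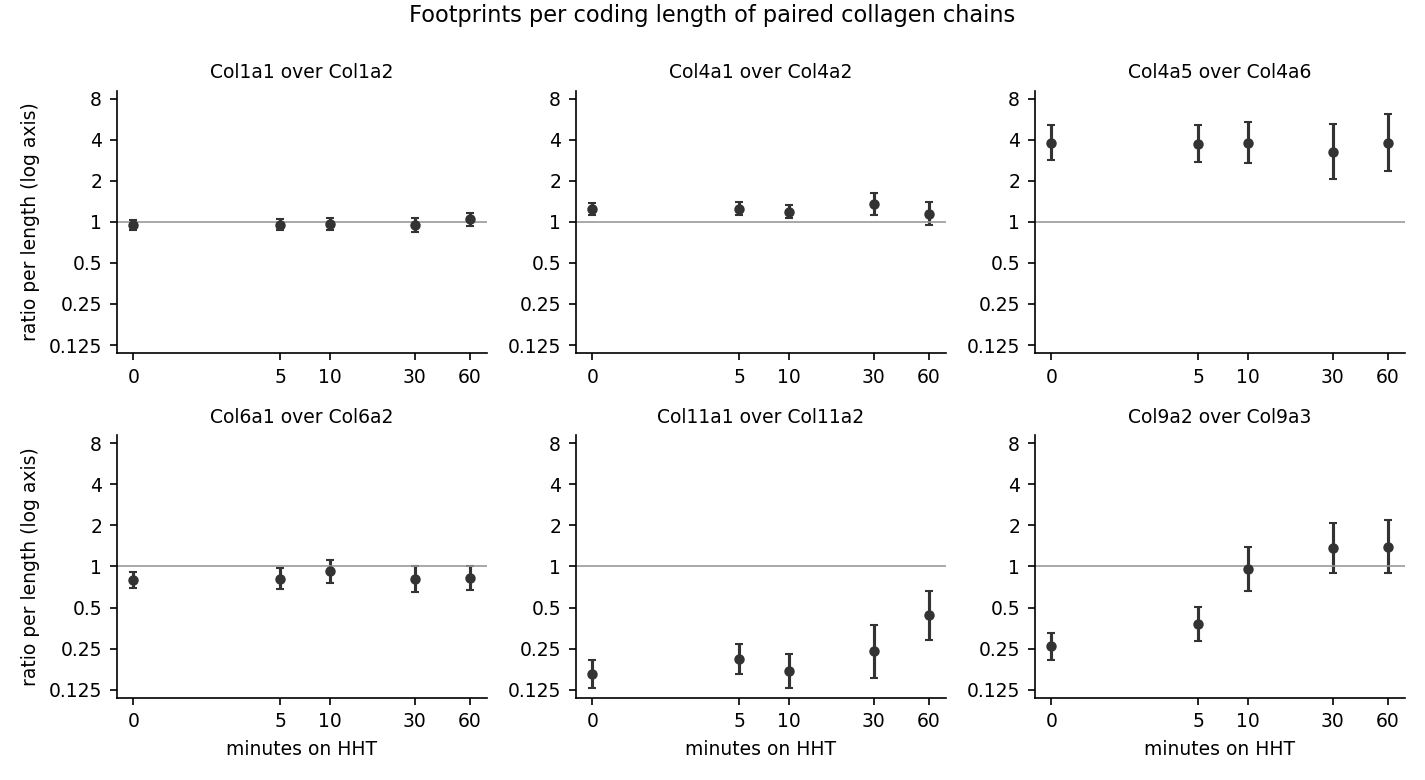
Footprints per coding length of one chain over its partner (y axis, log scale) against minutes on HHT, for 6 pairs of collagen chains, with 95% exact counting intervals. The type I, IV and VI pairs stay level, while Col11a1 over Col11a2 ends at 0.440 and Col9a2 over Col9a3 ends at 1.39.

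The genes with the most similar courses over the 4 times were sought among 7031 genes with at least 100 counts at 0 min, by the root mean square difference in log2 fold. The closest to Col1a1 was Col1a2 (0.07), and Grin2d (0.16), an NMDA receptor subunit, was also among its 3 closest. The closest to Col4a1 was Col4a2 (0.09), followed by the plexin gene Plxnc1 and the netrin receptor gene Unc5d (0.12 each). No collagen was among the 3 closest to Col3a1, which were Phlda1 (0.06), Gm21949 (0.10) and Obsl1 (0.17). The 3 closest to Col9a3 were Cdk11b (0.07), Nfkb1 and Bbs9 (0.09 each).

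Counts past fixed thresholds are given with the share of all genes past them, and the choice of members leaves nothing to be read from them. A ratio of at least 0.5 was held by 25 of 28 collagens after 5 min (21.9% of all genes), by 22 after 10 min (15.7%), by 10 after 30 min (4.59%) and by 8 after 60 min (2.73%). The 8 were Col1a1, Col1a2, Col3a1, Col8a1, Col8a2, Col9a2, Col14a1 and Col26a1. Among the 15 collagens of 4000 to under 6000 nt the counts were 15, 14, 7 and 4 in time order, beside 83.3%, 75.3%, 4.98% and 2.85% of the 562 genes. A ratio above 1 at 10 min was held by 6 collagens, Col3a1, Col4a1, Col4a2, Col5a1, Col8a2 and Col22a1 (0.862% of all genes). The signal at 10 min was above that at 5 min in 13 of 28 (31.7% of all genes). Among genes of 4000 to under 6000 nt it was so in 7 of 15 collagens and in 260 of all 562 genes, a near equal share.

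On the scale relative to other mRNAs, and among genes whose counts in the libraries compared sum to 100 or more, 13 of 20 collagens were at least 2-fold higher at 5 min than at 0 min (6.11% of such genes). After 10 min 17 of 20 were (13.1%), after 30 min 7 of 19 (3.92%) and after 60 min 10 of 19 (4.54%). These shares are of genes of all lengths. The 562 genes of 4000 to under 6000 nt had a median log2 fold of 0.847 at 5 min and 1.152 at 10 min. At 30 and 60 min it was 0.147 and 0.122. The counts at 5 and 10 min thus do not by themselves set collagens apart from long mRNAs. Less the length trend, the median log2 fold of the collagens was 0.52 and 0.68 at those times. For a slope on log2(minutes + 1) over the 5 libraries, 27 of 28 collagens passed the filter of a mean of 10 counts, and Col20a1 did not. By the quasi-likelihood test of edgeR 0 of the 27 had an adjusted p under 0.05 on the relative scale (0.0106% of 9444 genes), 12 had an unadjusted p under 0.05 (12.2% of those genes), and DESeq2 called 1, Col3a1 (0.773%). With the deposited library factors the same test called 15 of 27 lower with time at an adjusted p under 0.05 (94.2% of 9444 genes). The 15 were made up of 2 of 7 fibrillar, 3 of 6 network and 10 of 14 other collagens. Those not called also had negative slopes, the shallowest for Col3a1 (-0.0154) and Col8a2 (-0.0165).

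The proteins that make and handle collagen were followed as lists, on the deposited factors, on which 94.2% of all tested genes were called lower. The counts of fallen genes are read beside that share. Of 13 measured hydroxylases and glycosyltransferases of collagen, 12 were tested and 11 fell, with a median ratio at 60 min of 0.209. P4hb and P4ha1, subunits of prolyl 4-hydroxylase, had ratios at 60 min of 0.198 and 0.209. Plod1, a lysyl hydroxylase, had 503, 167, 110, 88 and 49 counts in time order and a ratio at 60 min of 0.100. P3h1, a prolyl 3-hydroxylase, and Colgalt2, a collagen galactosyltransferase, had ratios at 60 min of 0.283 and 0.252. All 5 of these lay below the ratios of Col1a1 and Col1a2. Of 18 chaperone and export genes, 16 were tested and 16 fell, with a median of 0.206. Serpinh1, the collagen chaperone HSP47, had 214, 63, 67, 77 and 66 counts and a ratio at 60 min of 0.317. Mia3 and Ctage5, which help load procollagen into large carriers, had ratios at 60 min of 0.319 and 0.517, and Sec24d, a coat protein of those carriers, 0.0777. Sparc, a collagen-binding matrix protein, had 0.158.

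Of 12 procollagen processing and crosslinking genes, 10 were tested and 9 fell, with a median ratio at 60 min of 0.308. Pcolce, an enhancer of procollagen C-proteinase, had 157, 71, 76, 61 and 56 counts and a ratio at 60 min of 0.366. Of 8 collagen receptor genes 7 fell, with a median of 0.239. Mrc2, the collagen uptake receptor of fibroblasts, had 228, 136, 157, 123 and 131 counts and a ratio at 60 min of 0.590, and Itgb1, the shared beta chain of collagen-binding integrins, had 0.170. Of 30 matrix partner genes 25 fell, with a median of 0.295. Hspg2, the basement membrane proteoglycan perlecan, had 333, 311, 288, 160 and 175 counts and a ratio at 60 min of 0.540, and Vcan, the hyaluronan-binding proteoglycan versican, had 741, 559, 324, 87 and 54 counts and 0.0749. Of 13 collagenase and inhibitor genes 12 were tested and 11 fell, with a median of 0.197. Of 19 genes for proteins with a collagen-like repeat that are not collagens, 16 were tested and 15 fell. The median of the 19 genes, 0.156, was the lowest of these lists. C1qa, a complement subunit with such a repeat, had 153, 14, 5, 5 and 2 counts and a ratio at 60 min of 0.0134 (log2 fold relative to other mRNAs -3.27, -6.83 to -1.89). It was the lowest named member, and 9 of the 19 genes had a log2 fold above 0 at 60 min. Among these 9 were Ccbe1 and C1ql3, with ratios of 0.390 and 0.191.

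Markers of the cells that could supply collagen mRNA were set beside these values, and their part in the collagen results was not tested. Of 15 fibroblast and meningeal markers 12 were in the count table, 10 of 12 fell (94.2% of all tested genes did) and the median ratio at 60 min was 0.312. Their summed signal was 4262, 1387, 1385, 1339 and 1123 in time order. Of 19 endothelial markers 16 were in the table, 15 of 16 fell and the median was 0.185, with a summed signal of 24599, 6659, 7827, 11086 and 11889, most of it Bsg. Of 13 mural markers 9 were in the table, 6 of 7 tested fell and the median was 0.221, with a summed signal of 2242, 904, 1030, 785 and 702. Of 10 neuron markers 9 were in the table, 9 of 9 fell and the median was 0.237, with a summed signal from 66935 at 0 min to 15799 at 60 min. The summed signal of the 28 collagens was 2447, 1787, 1710, 1058 and 977. Single fibroblast markers ran apart, with a ratio at 60 min of 0.498 for Ogn, a small leucine-rich proteoglycan of meninges, and of 0.0756 for Pdgfra, which oligodendrocyte precursors also make. No marker list had a member called on the relative slope. That slope called 1 of 9444 genes in all (0.0106%), so the lack of calls says nothing about the markers. No marker in the table was at 0 counts at 0 min, since the table starts at 11 counts there.

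The remaining collagen symbols are in the deposited table of rounded TPM, which lists 44 collagens. The 13 that are found only there, among them Col2a1, Col4a3, Col4a4 and Col5a3, were listed at 0 TPM at 0 min and at 1 TPM at most in any library.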

How the data were processed

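Footprints of 5 libraries, 1 per time on HHT, were analysed from the authors' processed tables. The build listed is mm10, and the tools listed are TopHat2 2.0.9, Bowtie2 2.1.0, SAMtools 0.0.19, Trimmomatic 0.32 and cutadapt 1.7.1, per the submitters' processing notes. The authors deposited expected counts per gene (whole numbers as listed), for genes with at least 11 counts at 0 min and a CDS of 603 nt or more. The deposited signal is the count per kilobase of CDS less 600 nt, divided by library factors of 1, 0.965, 0.828, 0.882 and 0.973 in time order, of unstated origin. The deposited ratio divides that signal by its value at 0 min. A deposited score, TPM rounded to whole numbers, covers more genes.

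Slopes on log2(minutes + 1) were tested with edgeR 4.0.16 (quasi-likelihood, R 4.3.3) over genes with a mean of at least 10 counts, scaled by TMM (relative scale) or by the deposited factors, with Benjamini-Hochberg adjustment over 9444 genes and adjusted p under 0.05. "Fell" means called lower on the deposited factors. Log2 folds are of CPM after TMM, with 2 as prior count. Intervals are exact 95% conditional binomial intervals and cover counting error only, without molecular identifiers. The length trend is a loess curve (span 0.5) over genes with at least 50 counts at 0 min. The members and gene lists were chosen with earlier results of these data known. Besides collagens, the named genes are the 2 highest and 2 lowest of each list by fold at 60 min with at least 50 counts at 0 and 60 min together, of which some are printed, with 8 marker genes of the pathway and the 3 nearest patterns, of which 1 is not reported here. Positions are from GRCm38.p6, matched for 28 of 28 transcripts. Alternatives were other scalings, filters, time axes, DESeq2 1.42.0, left-out libraries, the TPM table and the length trend. Collagen sequences were not used here.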

Additional observations from a re-analysis of the deposited data

How the results depend on the processing

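Under the alternative settings 77 class medians stayed within the counting spread of their main value and 7 moved, and 426 gene log2 folds did against 22 that moved, 20 of them in the rounded TPM table. Ratios from that table, which lacks the library factors, moved for 102 values. Taking off the length trend lowered the median log2 folds at 5 and 10 min to 0.54 and 0.74 for fibrillar collagens (1.40 and 1.68 without it), to 0.63 and 0.79 for network collagens (1.45 and 1.83) and to 0.46 and 0.53 for the others (0.99 and 1.32). Without Col1a1 and Col1a2, a setting chosen after seeing the data, the fibrillar median at 30 min was 0.76 (1.49 with them), below the network median. For the slope on the relative scale, the Wald test of DESeq2 called 1 collagen, Col3a1, higher (73 of 9444 genes in all), against 0 by edgeR (1 gene in all), and leaving out 1 library at a time gave 0 to 4, with Col4a1, Col4a2, Col9a3 and Col11a2 called lower without the 0 min library. There 1316 of 8631 genes were called in all, and Col4a1 and Col4a2 had slopes of 0.05 and 0.06, above 0, with all 5 libraries. With the deposited factors 15 collagens were called (8900 of 9444 genes in all). With plain minutes as the time axis 0 were, when 24 of 9444 genes were called in all, and leaving out 1 library at a time gave 6, without the 60 min library (8503 of 9598 genes), to 17, without the 5 min library (9173 of 9526 genes). The cause was not tested. No paired analysis was possible because each time has 1 library. Depth limits the late values: 4 collagens, Col6a5, Col20a1, Col22a1 and Col23a1, had under 12 counts at 60 min.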
